A study of Mus musculus with 15 samples.

Results

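The 39 genes described here encode lysosomal proteins: 10 cathepsins and legumain, 5 membrane proteins, 7 glycosidases, 6 lipid-handling proteins, 3 other soluble proteins, 6 proteins of the proton pump, and the channel Mcoln1 with the regulator Tfeb. They were found by symbol among the 50508 rows of the deposited count table. All 39 were present, and all passed the filter on low counts that left 13800 genes for testing. RNA was sequenced from myeloid cells of mouse tumours grown from Lewis lung carcinoma (LLC) cells and established for 10 days, after sorting of the cells by flow cytometry. The 4 groups were Ly6Clow cells of Mock-LLC tumours (n = 4), Ly6Chigh CD11c+ MHC-II+ cells of the same Mock-LLC tumours (n = 4), Ly6Clow cells of SULT2B1b-LLC tumours (n = 3, tumours 2, 3 and 4) and Ly6Chigh CD11c+ MHC-II+ cells of SULT2B1b-LLC tumours (n = 4). SULT2B1b, a cholesterol and oxysterol sulfotransferase, was carried by the LLC cells, which the labels give as the genotype. They give neither how that line was made nor the strain and age of the mice. The tumours are numbered, but the labels do not say that each tumour came from its own mouse.

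Lysosomes are acidic compartments in which macrophages and dendritic cells break down material taken up from outside and from their own cytoplasm. The vacuolar ATPase pumps protons into the lumen, soluble hydrolases digest proteins, glycans and lipids, and heavily glycosylated membrane proteins line the inner face. In antigen-presenting cells cathepsin S trims the invariant chain from MHC class II. Acid lipase acts on cholesteryl esters, and NPC2 and NPC1 carry cholesterol through the lysosome, from which sterols reach the rest of the cell. TFEB, a transcription factor, binds a short promoter element and can raise many lysosomal genes together.

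Depth was 19792494 to 39284008 counts in Ly6Clow and 2617878 to 10626954 counts in Ly6Chigh libraries, and the 39 genes took 80920 to 1348395 counts of a library. The SULT2B1b-LLC tumour 1 Ly6Chigh library stood apart: it had the lowest depth, but counts for 24540 genes (13123 to 17737 in its 7 fellow Ly6Chigh libraries), and unnamed gene models took 9.75% of its total. The calls that changed when it was left out are given beside the results. The 6 general myeloid markers summed to 16468 CPM or more in every library. CPM is a library's count of a gene scaled by its TMM-adjusted size (TMM is a scaling factor that lets libraries of different composition be compared). The 5 monocyte markers summed to 3720 to 5936 CPM in Ly6Chigh and 1597 to 2090 CPM in Ly6Clow libraries. Macrophage markers (8 genes) summed to 8437 to 10272 CPM in Mock-LLC Ly6Clow, 3471 to 3880 in Mock-LLC Ly6Chigh, 13421 to 13922 in SULT2B1b-LLC Ly6Clow and 5563 to 7674 CPM in SULT2B1b-LLC Ly6Chigh libraries. The 6 eosinophil markers summed to 198 to 383 CPM in Ly6Clow and 3.72 to 55.3 CPM in Ly6Chigh libraries, where Prg2, Epx and Il5ra were at 0 throughout Mock-LLC and Epx throughout SULT2B1b-LLC. The 6 neutrophil markers summed to 358 to 646 CPM in Ly6Clow and 7.49 to 30.6 CPM in Ly6Chigh libraries. T and NK cell, B cell and epithelial markers summed to at most 6.06, 16.3 and 22.9 CPM in any library. The 5 fibroblast markers summed to 47.1 to 287 CPM in Ly6Clow and 101 to 1364 CPM in Ly6Chigh libraries. Endothelial markers summed to at most 73.1 CPM. In bulk samples fewer cells of a type and less RNA per cell cannot be told apart.

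The 39 genes took 3.07% to 3.97% of the counts of a library. Their summed level was 36110 ± 1674 CPM (SD, n = 4) in Mock-LLC Ly6Clow cells and 31006 ± 1937 CPM (SD, n = 4) in Mock-LLC Ly6Chigh cells. In SULT2B1b-LLC tumours it was 40092 ± 46.8 CPM (SD, n = 3) in Ly6Clow and 35406 ± 4045 CPM (SD, n = 4) in Ly6Chigh cells. Psap, Ctss, Ctsb, Ctsc and Lgmn together made up 51.7% to 57.5% of that sum in each library. Per kilobase of exon (RPKM, mean over libraries), Ctss, the cysteine protease cathepsin S, ranked first in all 4 groups, at 3158, 3355, 4143 and 4181 RPKM in Mock-LLC Ly6Clow, Mock-LLC Ly6Chigh, SULT2B1b-LLC Ly6Clow and SULT2B1b-LLC Ly6Chigh cells. Psap, the precursor of the saposins that present sphingolipids to their hydrolases, ranked second in the same 4 groups, at 2131, 1548, 2883 and 2014 RPKM. Lgmn, an asparaginyl endopeptidase, and Ctsz, a carboxypeptidase, took the next ranks, Lgmn ahead in Ly6Clow and Ctsz ahead in Ly6Chigh cells. In Mock-LLC Ly6Clow cells their levels were 902 ± 57.7 and 807 ± 51.8 RPKM (SD, n = 4), closer than in Mock-LLC Ly6Chigh cells, at 815 ± 29.9 and 999 ± 114 RPKM (SD, n = 4). Exon length was the union of all annotated exons of a gene, for example 1358 bases for Ctss and 5438 for Npc2. Ranks between genes therefore also depend on the annotation. At the low end were Tfeb (2.76 to 4.42 RPKM over the 4 group means), Mcoln1, the calcium channel of the lysosomal membrane (6.43 to 8.51 RPKM), and Atp6v0d2, a pump subunit of osteoclasts and some macrophages (0.200 to 6.49 RPKM).

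The element that TFEB binds carries the core CACGTG, and its longer form is TCACGTGA; both read the same on either strand, and the longer form contains the core. Windows from 250 bases before to 50 after the annotated start (RefSeq, GRCm38.p6) were on hand for 32 of the 39 genes. The core was in 12 of these 32 genes (37.5%), against 8.09% of 27025 genes in the whole promoter table. TCACGTGA was in 6 of 32 (18.8%), against 1.12% of the 27025. The element is already known as one of lysosomal genes, so these shares describe the set and test nothing. The 12 with the core were Atp6v0d1, Atp6v1a, Ctsa, Ctsd, Ctsl, Gaa, Gla, Glb1, Lamp1, Lgmn, Mcoln1 and Naglu, and the 6 with the longer form are shown because they share it across a protease, a glycosidase, pump subunits and the channel. Capitals mark the core, all are written 5′ to 3′ on the gene's strand, and a match of letters is not a binding site.
Ctsa (chr2:164833748-164833796, + strand): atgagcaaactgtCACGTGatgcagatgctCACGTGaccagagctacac
Ctsd (chr7:142387907-142387938, - strand): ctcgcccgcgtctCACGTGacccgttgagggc
Mcoln1 (chr8:3500461-3500492, + strand): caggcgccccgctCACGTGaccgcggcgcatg
Atp6v0d1 (chr8:105566049-105566080, - strand): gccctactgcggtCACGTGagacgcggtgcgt
Atp6v1a (chr16:44139372-44139403, - strand): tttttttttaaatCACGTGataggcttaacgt
Gla (chrX:134601181-134601245, - strand): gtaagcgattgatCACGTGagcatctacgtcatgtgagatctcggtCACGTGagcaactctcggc
Spacing differed: the first base of the core lay 98 bases before the start in Ctsd, 45 before it in Mcoln1 and 3 before it in Atp6v0d1. Ctsa held it 12 bases before and 6 after the start, and Gla held it 227 and 194 bases before.

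**Figure D1:**
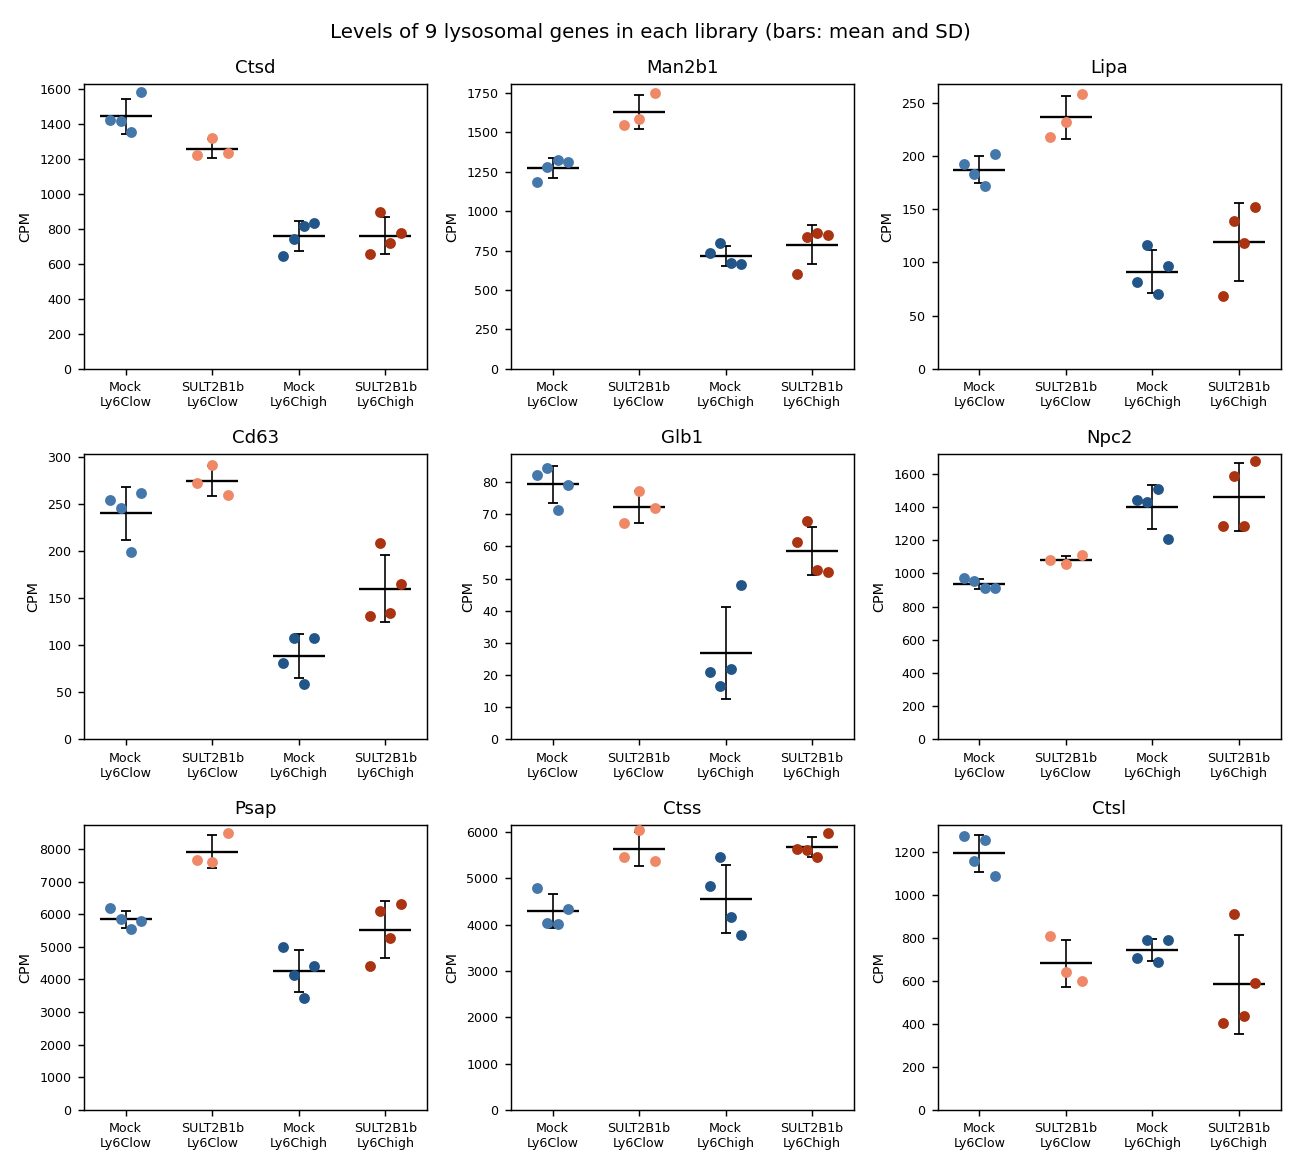
Levels of 9 lysosomal genes in CPM on TMM-adjusted library sizes (y axis, from 0) in the 4 groups (x axis); each point is a library, and bars give the mean and SD. Ctsd, Man2b1 and Lipa are lower in every Ly6Chigh library than in every Ly6Clow library, Npc2 is higher in every one, Cd63 is lower within each tumour type, and Glb1 is lowest in Mock-LLC Ly6Chigh cells.

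Ly6Chigh cells were compared with Ly6Clow cells of the same Mock-LLC tumours to see how the lysosomal genes differ between the populations. Of the 39 genes, 13 were lower in Ly6Chigh cells and 1 was higher (edgeR's quasi-likelihood test over all genes with Benjamini-Hochberg adjustment, adjusted p under 0.05), where 4.86% of all genes tested were lower and 3.55% higher. The 13 lower genes were Ctsd, Ctsl, Cd63, Hexa, Glb1, Gusb, Man2b1, Naglu, Lipa, Psap, Smpd1, Grn and Tpp1, and the higher one was Npc2. Of the glycosidases 5 of 7 were lower, of the other soluble proteins 2 of 3, and of the lipid-handling genes 3 of 6 with 1 higher, while 0 of 6 proton pump genes passed. The median log2 fold change over the 39 genes was -0.28, beside -0.08 over all genes tested, and 30 of the 39 were below 0. The groups did not overlap for 22 genes lower and 4 higher in Ly6Chigh cells, beside 15.8% and 6.46% of all genes tested. Of the 8 macrophage markers 7 were lower in Ly6Chigh cells in the same test, as were 4 of 6 eosinophil, 3 of 6 general myeloid, 1 of 6 neutrophil and 1 of 4 epithelial markers. Higher were 3 of 5 monocyte markers and 1 each of the general myeloid, dendritic cell and fibroblast lists; their part in these differences was not tested. Without the SULT2B1b-LLC tumour 1 Ly6Chigh library, which bears on this comparison through the estimate of spread and the genes tested, Ctsh and Ctsz joined Npc2 as higher (adjusted p = 0.00490 and 0.0247), beside 10.1% of the genes in that fit called in either direction.

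**Figure D2:**
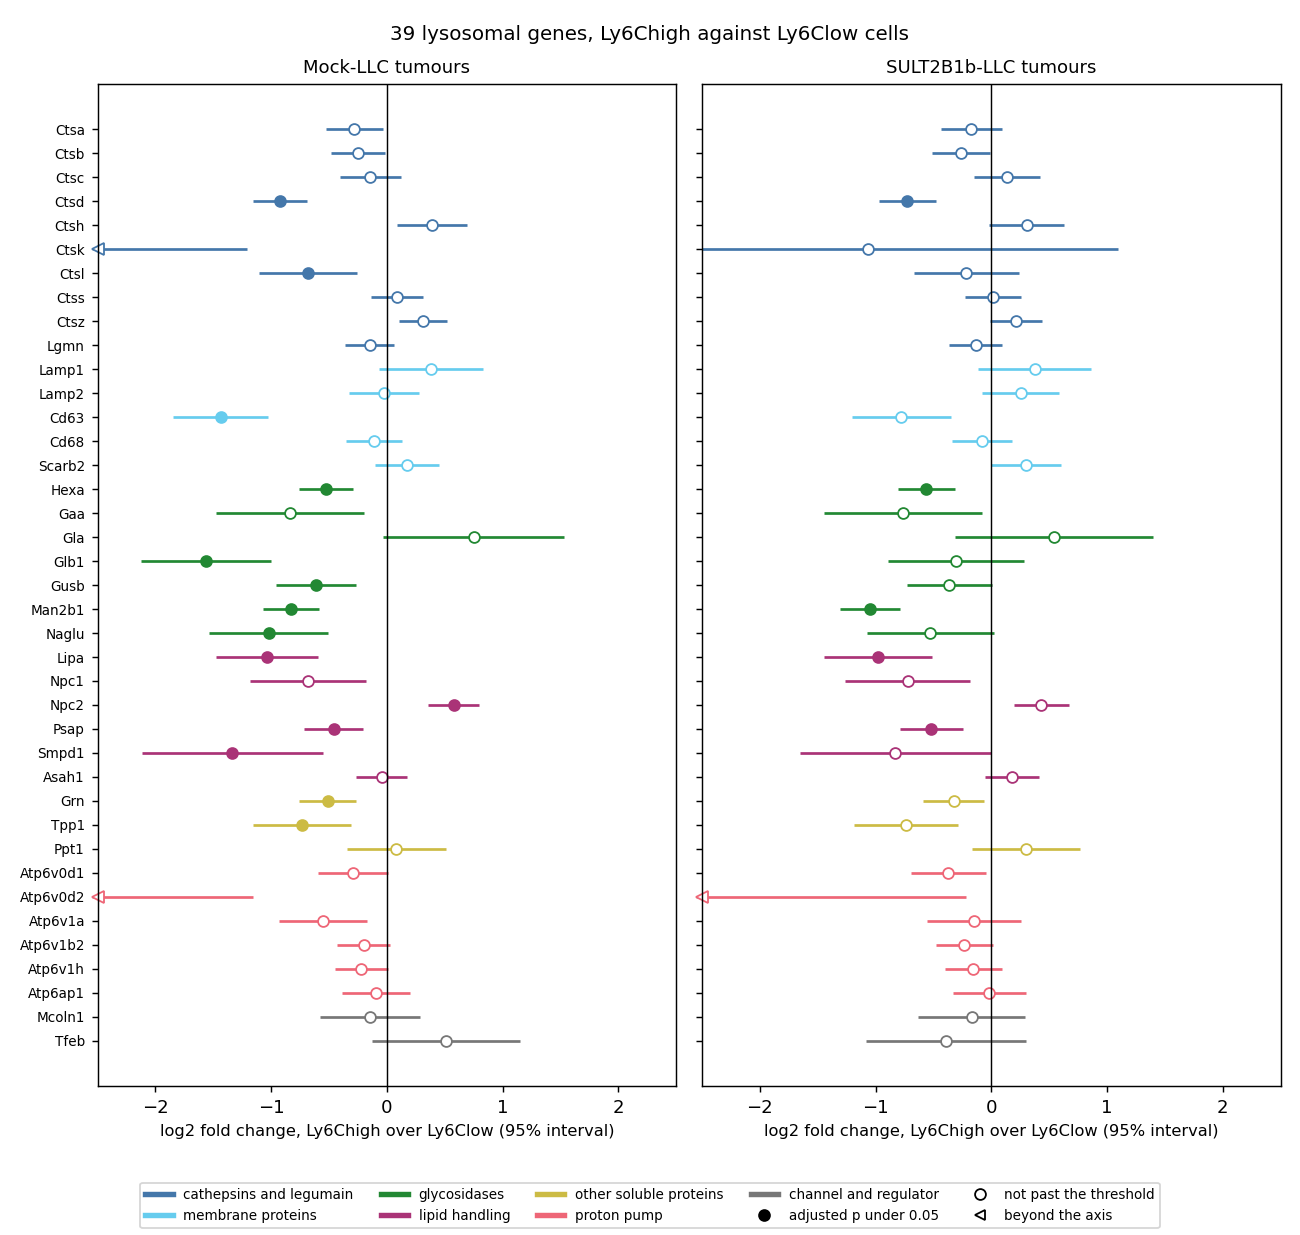
Log2 fold change of Ly6Chigh over Ly6Clow cells (x axis) for each of the 39 genes (y axis, coloured by subgroup) in Mock-LLC (left) and SULT2B1b-LLC tumours (right), with 95% intervals; filled points passed an adjusted p of 0.05, and arrows mark Ctsk and Atp6v0d2 values beyond the axis. Filled points number 14 on the left and 5 on the right, and all 6 pump genes lie left of 0 in both panels, Atp6ap1 so near it that its value turned positive with median-ratio factors.

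Among the proteases, Ctsd (cathepsin D, the main aspartic protease of the lysosome, chr7:142375911-142388038 on GRCm38) stood at 1424, 1419, 1353 and 1586 CPM in the Ly6Clow and 645, 741, 819 and 837 CPM in the Ly6Chigh libraries of Mock-LLC tumours 1 to 4. Every Ly6Chigh value was below every Ly6Clow value, and the gene was 1.90-fold lower (log2 fold change -0.93, SE 0.11, adjusted p = 0.00011). Of the exonic bases of Ctsd, 34.4% are shared with the annotated gene Gm49369 on the same strand, which is not used here. Ctsl (cathepsin L) was at 1275, 1159, 1256 and 1087 CPM in Ly6Clow and 708, 790, 690 and 789 CPM in Ly6Chigh libraries, again without overlap, and was 1.60-fold lower (log2 fold change -0.68, SE 0.20, adjusted p = 0.0457). An antisense gene covers 26.8% of its exonic bases, and without strand the reads of the pair cannot be told apart. Ctsk (cathepsin K, the collagen-degrading protease of osteoclasts) was at 21.8 to 35.3 CPM in Ly6Clow and 0 to 3.80 CPM in Ly6Chigh libraries, with a log2 fold change of -3.40 (95% interval -5.58 to -1.21) that missed the threshold (adjusted p = 0.0539). Another 3 cathepsins had positive values that did not pass: Ctss had a log2 fold change of 0.09 (95% interval -0.14 to 0.31), Ctsz 0.31 (adjusted p = 0.0653) and Ctsh, an aminopeptidase, 0.39 (adjusted p = 0.107). The remaining proteases, Ctsa, Ctsb, Ctsc and Lgmn, had log2 fold changes from -0.28 to -0.14 and did not pass.

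Of the membrane proteins, Cd63, a tetraspanin of lysosomes and secretory granules (chr10:128900989-128912822), had the clearest difference. It was at 255, 246, 199 and 261 CPM in the Ly6Clow and 81.1, 107, 59.1 and 107 CPM in the Ly6Chigh libraries of Mock-LLC tumours 1 to 4. The groups lay far apart, and the gene was 2.71-fold lower in Ly6Chigh cells (log2 fold change -1.44, SE 0.19, adjusted p = 0.000285). The other 4 membrane proteins did not pass: Lamp1 and Lamp2, the most abundant glycoproteins of the lysosomal membrane, had log2 fold changes of 0.38 and -0.03, Cd68, a macrophage sialomucin, -0.11, and Scarb2, the receptor that sorts glucocerebrosidase, 0.17. The values of Lamp2 and Cd68 were near 0 and turned positive with median-ratio factors, at 0.10 and 0.02.

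Glycosidases cleave sugars from glycoproteins and glycolipids, and 5 of the 7 were lower. The 7 genes together were at 2663, 2703, 2722 and 2724 CPM in the Mock-LLC Ly6Clow libraries and 1639, 1733, 1662 and 1649 CPM in the Ly6Chigh libraries. Both groups were tight and did not overlap. Glb1, beta-galactosidase (chr9:114401076-114474898), was at 82.4, 84.6, 71.4 and 79.0 CPM in Ly6Clow and 21.0, 16.4, 21.8 and 48.1 CPM in Ly6Chigh libraries. The tumour 4 value was above the other Ly6Chigh values but still below all Ly6Clow values, and the gene was 2.95-fold lower (log2 fold change -1.56, SE 0.26, adjusted p = 0.0020). Tmppe, which shares 5.49% of the exonic bases of Glb1 on the same strand, was at 20.4 ± 4.20 CPM in Ly6Clow and 26.8 ± 14.2 CPM in Ly6Chigh cells (SD, n = 4 each). Man2b1, the lysosomal alpha-mannosidase (chr8:85083270-85098282), was at 1183, 1281, 1323 and 1312 CPM in Ly6Clow and 737, 800, 670 and 667 CPM in Ly6Chigh libraries. Its values did not overlap, and it was 1.77-fold lower (log2 fold change -0.83, SE 0.11, adjusted p = 0.00037). Naglu, which acts on heparan sulfate, was 2.03-fold lower (adjusted p = 0.0168), Gusb, beta-glucuronidase, 1.53-fold lower (adjusted p = 0.0278), and Hexa, the alpha subunit of hexosaminidase A, 1.44-fold lower (adjusted p = 0.00763). Gaa, the acid alpha-glucosidase of glycogen, had a log2 fold change of -0.84 (adjusted p = 0.107). Gla, alpha-galactosidase A, had the only positive value of the group, 0.75 (95% interval -0.03 to 1.53), with Ly6Chigh libraries spread from 36.5 to 168 CPM.

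Of the 6 lipid-handling genes, 3 were lower and 1 higher. Lipa, the acid lipase of cholesteryl esters (chr19:34492318-34527474), was at 192, 183, 172 and 202 CPM in Ly6Clow and 81.1, 117, 70.3 and 97.0 CPM in Ly6Chigh libraries of Mock-LLC tumours. The values did not overlap, and Lipa was 2.05-fold lower (log2 fold change -1.04, SE 0.21, adjusted p = 0.00614). Smpd1, acid sphingomyelinase, was at 40.8, 39.5, 36.5 and 43.1 CPM in Ly6Clow and 13.6, 17.2, 4.79 and 27.6 CPM in Ly6Chigh libraries, and was 2.53-fold lower (log2 fold change -1.34, SE 0.37, adjusted p = 0.0343). Psap was 1.38-fold lower (adjusted p = 0.0272). Npc2, the soluble protein that takes cholesterol from lysosomal membranes and lipoproteins (chr12:84754562-84773152), ran the other way, at 972, 953, 913 and 914 CPM in Ly6Clow and 1445, 1433, 1509 and 1206 CPM in Ly6Chigh libraries. All Ly6Chigh values were above all Ly6Clow values, and Npc2 was 1.49-fold higher (log2 fold change 0.58, SE 0.10, adjusted p = 0.00273). Its membrane partner Npc1 had a log2 fold change of -0.69 (SE 0.24) with no overlap between the groups, but did not pass (adjusted p = 0.0911). Asah1, acid ceramidase, was at -0.05 (95% interval -0.26 to 0.17), and at 0.08 with median-ratio factors.

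Of the other soluble proteins, Grn, progranulin, was 1.42-fold lower (adjusted p = 0.0132) and Tpp1, tripeptidyl peptidase 1, 1.67-fold lower (adjusted p = 0.0317), while Ppt1, which removes palmitate from proteins, had a log2 fold change of 0.08. All 6 pump genes had negative log2 fold changes, none past the threshold, and Atp6ap1, an accessory subunit, moved from -0.09 to 0.04 with median-ratio factors. Atp6v1a, the catalytic subunit, came nearest among the abundant ones, at -0.55 (SE 0.18, adjusted p = 0.0693). Atp6v0d2 was at 8.71 to 11.6 CPM in Ly6Clow libraries, at 0 in the Ly6Chigh libraries of tumours 1, 2 and 3, and at 2.17 CPM in that of tumour 4 (log2 fold change -4.19, 95% interval -7.23 to -1.15, adjusted p = 0.0872). Mcoln1 and Tfeb had log2 fold changes of -0.15 and 0.51 (adjusted p = 0.721 and 0.349).

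For the Mock-LLC comparison, Ctsd, Cd63, Glb1, Man2b1, Lipa and Npc2 passed under every alternative setting and with every library left out. The other calls were less stable. Of the 15 fits with a library left out, 13 lost Ctsl, 13 Psap, 13 Tpp1, 12 Gusb, 12 Smpd1 and 11 Grn. Naglu was lost in 6 and Hexa in 2. With median-ratio factors Ctsl, Gusb, Psap, Smpd1, Grn and Tpp1 did not pass. With a library left out, the count of genes passed ran from 6, without the Ly6Clow library of tumour 2, to 16, without the SULT2B1b-LLC tumour 1 Ly6Chigh library. In these 2 fits 4.28% and 10.1% of all genes were called. Over the other settings the count ran from 7, with no filter on low counts, to 22, with limma-voom, beside 1.74% and 17.6% of all genes. Median-ratio scaling factors moved the median of all genes tested from -0.08 to 0.05. They gave 3 higher and 7 lower, beside 7.61% of all genes called. No scaling factors gave 3 higher and 12 lower, beside 8.1%, and Ctsh and Ctsz joined Npc2 in both fits.

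In SULT2B1b-LLC tumours the same contrast gave 5 genes lower in Ly6Chigh cells, Man2b1, Ctsd, Hexa, Lipa and Psap, and 0 higher, where 1.54% of all genes tested were lower and 1.1% higher. All 5 were also among the 13 of the Mock-LLC comparison, which has no library in common with this one but shares the estimate of spread. By subgroup, 2 of 7 glycosidases, 2 of 6 lipid-handling genes and 1 of 10 proteases were lower. Values did not overlap for 16 genes lower and 2 higher, beside 13.9% and 5.57% of all genes tested. The median log2 fold change was -0.23 over the 39 genes and -0.03 over all genes, and 28 of the 39 were below 0. Here 6 of 8 macrophage, 4 of 6 eosinophil and 1 of 6 neutrophil markers were lower in Ly6Chigh cells, and 3 of 5 monocyte, 2 of 5 fibroblast and 1 of 6 dendritic cell markers were higher; their part was not tested.

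Man2b1 was at 1545, 1587 and 1752 CPM in the Ly6Clow libraries of SULT2B1b-LLC tumours 2, 3 and 4, and at 600, 839, 864 and 846 CPM in the Ly6Chigh libraries of tumours 1 to 4. The 2 groups were far apart, with a 2.07-fold lower level in Ly6Chigh cells (log2 fold change -1.05, SE 0.12, adjusted p = 0.000162), and -0.88 without the tumour 1 Ly6Chigh library (adjusted p = 0.000189). Ctsd was at 1221, 1324 and 1235 CPM in Ly6Clow and 655, 899, 718 and 779 CPM in Ly6Chigh libraries, 1.65-fold lower (log2 fold change -0.72, SE 0.12, adjusted p = 0.00295; -0.60 and adjusted p = 0.00995 without that library). Lipa was at 218, 232 and 258 CPM in Ly6Clow and 68.5, 139, 118 and 152 CPM in Ly6Chigh libraries, 1.97-fold lower (log2 fold change -0.98, SE 0.22, adjusted p = 0.0243; -0.74 and adjusted p = 0.0298 without that library). For each of these 3 genes the tumour 1 Ly6Chigh value was the lowest of its group. Man2b1 passed under every alternative setting. Ctsd missed the threshold without the SULT2B1b-LLC tumour 3 Ly6Clow library (adjusted p = 0.0527). Lipa missed it with no filter on low counts (adjusted p = 0.0748), in a fit of the 2 groups alone (adjusted p = 0.114) and in 11 of the 15 fits with a library left out (adjusted p up to 0.230). Hexa was 1.48-fold lower (adjusted p = 0.0161, and 0.0402 without that library). Its call was lost in 5 of the 15 fits with a library left out, with no filter on low counts and with the 2 groups alone. Psap was at 7649, 7588 and 8496 CPM in Ly6Clow and 4421, 6098, 5269 and 6323 CPM in Ly6Chigh libraries, 1.43-fold lower (adjusted p = 0.0460). This call was lost in 14 of the 15 fits with a library left out, among them that without the tumour 1 Ly6Chigh library (adjusted p = 0.125). It was also lost with median-ratio factors, with no filter on low counts and with the 2 groups alone.

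With the tumour as a block, which pairs the populations of a tumour, 3 genes passed, beside 1.52% of all genes tested. They were Man2b1, Ctsd and Lipa, and the calls of Hexa (adjusted p = 0.0958) and Psap (adjusted p = 0.0589) were lost. SULT2B1b-LLC tumour 1 has no Ly6Clow library, so in this fit the contrast rests on tumours 2, 3 and 4. Effects of pairing and of dropping tumour 1 cannot be told apart here. Npc2 was at 1078, 1058 and 1109 CPM in Ly6Clow and 1284, 1588, 1286 and 1680 CPM in Ly6Chigh libraries, without overlap, and its log2 fold change of 0.43 (SE 0.11) missed the threshold (adjusted p = 0.0507). Without the tumour 1 Ly6Chigh library 2 genes passed as higher, Npc2 (0.54, adjusted p = 0.0141) and Ctsh (0.51, adjusted p = 0.0150), beside 2.97% of the genes in that fit called in either direction. Cd63 was at 272, 292 and 260 CPM in Ly6Clow and 131, 208, 135 and 165 CPM in Ly6Chigh libraries, also without overlap, with a log2 fold change of -0.78 (SE 0.20, adjusted p = 0.0552; -0.64 and adjusted p = 0.138 without that library). Median-ratio factors gave 1 gene higher and 4 lower, beside 2.67% of all genes called. No scaling factors gave 1 higher and 5 lower, beside 2.64%, and Npc2 was the higher one in both. The 6 pump genes had log2 fold changes from -3.24 (Atp6v0d2) to -0.02 (Atp6ap1, at 0.09 with median-ratio factors), and 0 of 6 passed.

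**Figure D3:**
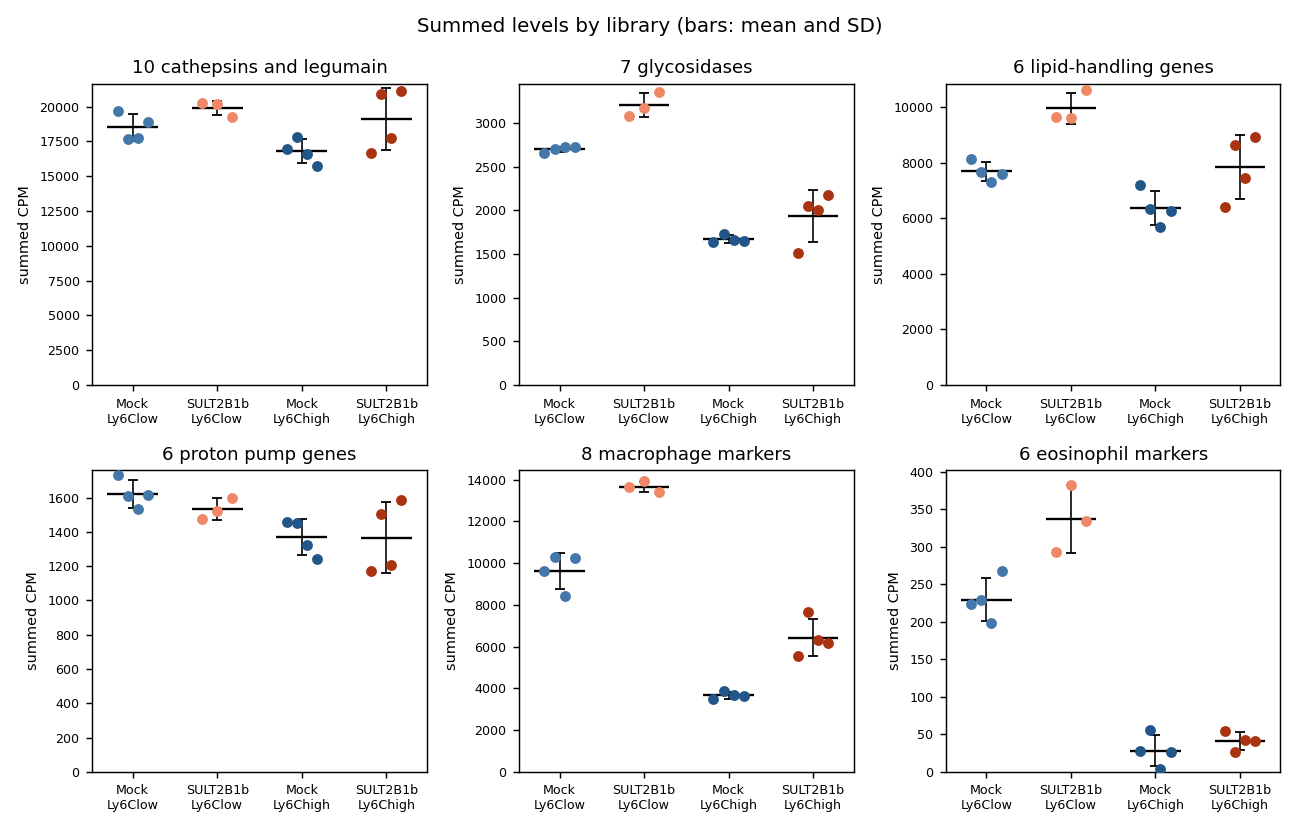
Summed CPM (y axis, from 0) of 4 subgroups of lysosomal genes and of macrophage and eosinophil markers in the 4 groups (x axis); each point is a library, and bars give the mean and SD. Glycosidase sums separate the populations within each tumour type, with 1509 to 2176 CPM in the SULT2B1b-LLC Ly6Chigh and 3086 to 3360 CPM in the SULT2B1b-LLC Ly6Clow libraries, and the macrophage marker sums are ordered the same way.

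SULT2B1b-LLC tumours were compared with Mock-LLC tumours within each population to see what tumour cells carrying SULT2B1b change in the infiltrating cells. In Ly6Chigh cells 2 of the 39 genes were higher, Cd63 and Glb1, and 0 were lower, where 0.891% of all genes tested were higher and 0.725% lower. Cd63 was at 81.1, 107, 59.1 and 107 CPM in Mock-LLC and 131, 208, 135 and 165 CPM in SULT2B1b-LLC libraries. The groups did not overlap, and Cd63 was 1.81-fold higher (log2 fold change 0.85, SE 0.19, adjusted p = 0.0352). Glb1 was at 21.0, 16.4, 21.8 and 48.1 CPM in Mock-LLC and 61.3, 67.8, 52.8 and 52.0 CPM in SULT2B1b-LLC libraries, 2.17-fold higher (log2 fold change 1.12, SE 0.26, adjusted p = 0.0460). Only the Mock-LLC tumour 4 value came close to the other group. Ctss was the third gene without overlap, at 4834, 5452, 4166 and 3773 CPM in Mock-LLC and 5645, 5610, 5470 and 5984 CPM in SULT2B1b-LLC libraries, but did not pass (log2 fold change 0.32, SE 0.11, adjusted p = 0.139). That makes 3 genes higher and 0 lower without overlap, beside 2.78% and 2.75% of all genes tested.

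Both calls in Ly6Chigh cells were lost in most fits with a library left out, Cd63 in 10 of the 15 and Glb1 in 14. Both were also lost with no filter on low counts, and Glb1 with limma-voom, no scaling factors and the tumour number as a block. In a fit of the 2 groups alone 0 genes passed, where 0.0257% of the genes in that fit were higher and 0% lower, with adjusted p = 0.290 for Cd63 and 0.376 for Glb1; at an unadjusted p under 0.05 the fit of all 4 groups had 9 genes higher and 1 lower, beside 15.6% of all genes tested in either direction. Without the tumour 1 Ly6Chigh library 6 genes were higher, Ctsc, Ctsh, Cd63, Hexa, Psap and Asah1, beside 2.46% of the genes in that fit in either direction, with Cd63 at 0.94 (adjusted p = 0.0277) and Glb1 at 1.11 (adjusted p = 0.0564). The median log2 fold change was 0.18 over the 39 genes and 0.03 over all genes. Ctsc, which activates granule serine proteases, was nearest to the threshold among the rest, at 0.49 (SE 0.12, adjusted p = 0.0608), followed by Hexa at 0.35 (adjusted p = 0.117) and Psap at 0.38 (adjusted p = 0.125). Pump genes other than Atp6v0d2 ranged from -0.27 to 0.20. In the same test 4 of 8 macrophage, 2 of 5 fibroblast and 1 of 4 epithelial markers were higher and 1 of 6 neutrophil markers lower in SULT2B1b-LLC Ly6Chigh cells, the fibroblast list summing to 101 to 636 CPM in Mock-LLC and 567 to 1364 CPM in SULT2B1b-LLC libraries; their part was not tested.

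**Figure D4:**
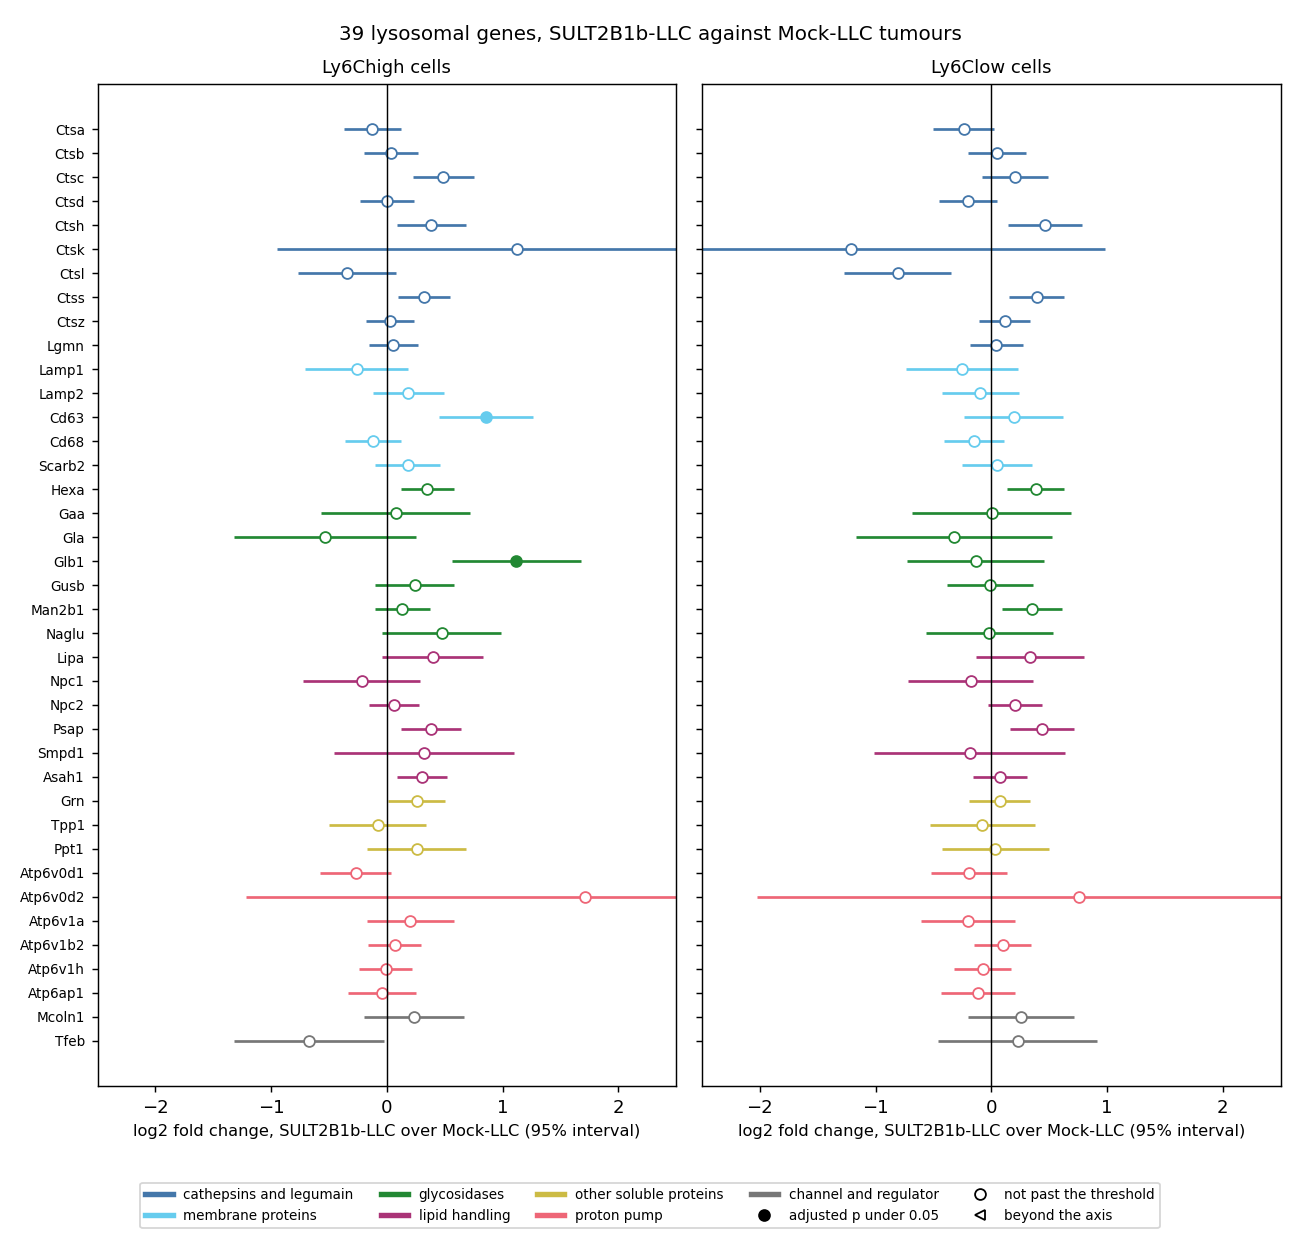
Log2 fold change of SULT2B1b-LLC over Mock-LLC tumours (x axis) for each of the 39 genes (y axis, coloured by subgroup) in Ly6Chigh (left) and Ly6Clow cells (right), with 95% intervals; filled points passed an adjusted p of 0.05. Only Cd63 and Glb1 in the left panel are filled, and the intervals of Ctsk and Atp6v0d2 run beyond the axis.

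In Ly6Clow cells 0 of the 39 genes passed in either direction, where 0.507% of all genes tested were higher and 0.13% lower; 5 genes were higher and 1 lower at an unadjusted p under 0.05, beside 3.74% of all genes tested in either direction. Ctsl was at 1275, 1159, 1256 and 1087 CPM in Mock-LLC and 807, 640 and 598 CPM in SULT2B1b-LLC libraries, without overlap (log2 fold change -0.81, SE 0.22, adjusted p = 0.195). Ctss was at 4788, 4031, 4004 and 4332 CPM in Mock-LLC and 5462, 6048 and 5371 CPM in SULT2B1b-LLC libraries (log2 fold change 0.39, SE 0.11, adjusted p = 0.284). Psap was at 6196, 5845, 5558 and 5794 CPM in Mock-LLC and 7649, 7588 and 8496 CPM in SULT2B1b-LLC libraries (log2 fold change 0.44, SE 0.13, adjusted p = 0.324). Both lay wholly above the Mock-LLC range. In all, 10 genes were higher and 6 lower without overlap, beside 7.59% and 8.55% of all genes tested. The 10 were Ctsc, Ctsh, Ctss, Hexa, Man2b1, Lipa, Npc2, Psap, Atp6v0d2 and Mcoln1, and the 6 were Ctsa, Ctsd, Ctsk, Ctsl, Cd68 and Npc1.

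Fitted alone, which also changed the genes tested, these 7 libraries gave 5 genes higher and 2 lower, beside 1.71% and 1.17% of the genes in that fit. Higher were Psap (log2 fold change 0.45, adjusted p = 0.00721), Hexa (0.40, adjusted p = 0.0104), Ctsh (0.48, adjusted p = 0.0121), Ctss (0.41, adjusted p = 0.0222) and Man2b1 (0.37, adjusted p = 0.0343). Lower were Ctsl (-0.79, adjusted p = 0.00627) and Ctsk (-1.19, adjusted p = 0.0278), a gene at 21.8 to 35.3 CPM in Mock-LLC and 9.14 to 15.7 CPM in SULT2B1b-LLC libraries. In fits of all libraries DESeq2 passed 5 genes, beside 1.4% of all genes, and limma-voom 6, beside 1.81% of all genes. Without the SULT2B1b-LLC tumour 1 Ly6Chigh library Ctsh passed as higher (0.49, adjusted p = 0.0248), beside 0.755% of the genes in that fit in either direction. The macrophage marker sums were higher in every SULT2B1b-LLC Ly6Clow library than in every Mock-LLC one, with 1 of 8 markers past the threshold, and their part was not tested.

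The interaction asks whether the tumour-type effect differed between the populations. None of the 39 genes passed, where 0.0145% of all genes tested were higher and 0% lower. DESeq2 and limma-voom also passed 0, beside 0.79% and 0.029% of all genes called in either direction. At an unadjusted p under 0.05, 2 genes were higher and 0 lower, beside 7.14% of all genes tested. Glb1 had the largest departure among those 2, a difference of effects of 1.25 (SE 0.38, 95% interval 0.44 to 2.07, adjusted p = 0.447). Its Ly6Clow values, at 82.4, 84.6, 71.4 and 79.0 CPM in Mock-LLC and 67.4, 77.4 and 71.9 CPM in SULT2B1b-LLC libraries, overlapped between tumour types. Glb1 passed in this test when the Mock-LLC tumour 4 Ly6Chigh library, its highest of that group, was left out. In that fit 0.197% of the genes tested were called in either direction, against 0.0145% with all libraries. Cd63 had a difference of effects of 0.66 (SE 0.28, adjusted p = 0.622). Tfeb, with 17.6, 17.8, 16.6 and 18.3 CPM in Mock-LLC Ly6Clow, 23.0, 38.7, 19.0 and 19.6 CPM in Mock-LLC Ly6Chigh, 17.3, 22.7 and 21.9 CPM in SULT2B1b-LLC Ly6Clow and 11.4, 13.1, 24.6 and 13.5 CPM in SULT2B1b-LLC Ly6Chigh libraries, had one of -0.90 (SE 0.44, adjusted p = 0.725). Its groups overlapped between tumour types in both populations.

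Matches of the promoter element were set beside the calls. Of the 13 genes lower in Mock-LLC Ly6Chigh cells, all with a window, 4 held CACGTG (Ctsd, Ctsl, Glb1 and Naglu) and 1 held TCACGTGA (Ctsd); of the other 19 genes with a window, 8 and 5 did. The windows of Ctsd and Glb1, which hold the core, and of Man2b1, which does not, are shown as examples of a window with and without it; these 3 genes, like Cd63 and Lipa, were lower in Mock-LLC Ly6Chigh cells under every setting. Capitals mark the core.
Ctsd (chr7:142387778-142388077, - strand): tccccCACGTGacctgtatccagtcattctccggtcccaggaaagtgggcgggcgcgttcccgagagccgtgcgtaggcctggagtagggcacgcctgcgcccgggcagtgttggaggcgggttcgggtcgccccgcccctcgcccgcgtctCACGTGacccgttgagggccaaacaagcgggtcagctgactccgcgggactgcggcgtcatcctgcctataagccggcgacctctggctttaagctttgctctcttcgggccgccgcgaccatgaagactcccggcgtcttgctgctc
Glb1 (chr9:114400828-114401127, + strand): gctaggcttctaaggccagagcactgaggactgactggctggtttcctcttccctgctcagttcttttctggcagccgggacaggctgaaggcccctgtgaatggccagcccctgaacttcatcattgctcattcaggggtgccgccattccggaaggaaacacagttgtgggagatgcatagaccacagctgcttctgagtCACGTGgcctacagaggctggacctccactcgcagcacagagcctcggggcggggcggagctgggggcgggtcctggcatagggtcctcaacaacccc
Man2b1 (chr8:85083019-85083318, + strand): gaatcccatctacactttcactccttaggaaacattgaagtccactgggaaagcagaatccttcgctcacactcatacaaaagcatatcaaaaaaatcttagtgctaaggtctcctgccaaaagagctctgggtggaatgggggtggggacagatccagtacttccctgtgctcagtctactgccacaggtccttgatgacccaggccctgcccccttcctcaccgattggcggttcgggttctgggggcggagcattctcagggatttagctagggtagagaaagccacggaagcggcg

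A further 86 genes outside the 39 were listed as lysosomal or related, among them regulators such as Tfec, and 80 of the 86 were tested. In Mock-LLC tumours 10 of them were lower and 1 higher in Ly6Chigh cells, beside 4.86% and 3.55% of all genes tested. In SULT2B1b-LLC tumours 6 were lower and 1 higher, beside 1.54% and 1.1%. Their medians were -0.23 and -0.19, beside the -0.08 and -0.03 of all genes. Arsb, arylsulfatase B, was 2.89-fold lower in Mock-LLC (adjusted p = 0.00657) and 3.68-fold lower in SULT2B1b-LLC tumours (adjusted p = 0.00557). Hgsnat, which acetylates heparan sulfate, was 2.71-fold lower (adjusted p = 3.8e-05) and 2.03-fold lower (adjusted p = 0.00243). Plbd1, a phospholipase B-like protein, was the higher gene in both, 2.20-fold (adjusted p = 0.000221) and 1.80-fold (adjusted p = 0.00921). Tpcn2, an endolysosomal cation channel, was 1.86-fold lower in Mock-LLC tumours (adjusted p = 0.0373). In SULT2B1b-LLC tumours Pla2g15, a lysosomal phospholipase A2, was 1.74-fold lower (adjusted p = 0.033) and Pepd, a dipeptidase, 1.71-fold lower (adjusted p = 0.0161). Without the tumour 1 Ly6Chigh library Pla2g15 missed the threshold (-0.72, adjusted p = 0.0968), while Arsb (adjusted p = 0.0140), Hgsnat (adjusted p = 0.00931), Plbd1 (adjusted p = 0.00931) and Pepd (adjusted p = 0.0444) still passed. Of 12 further pump genes, Atp6v0c and Atp6v1e1 were lower in Mock-LLC Ly6Chigh cells, by 1.55-fold (adjusted p = 0.0314) and 1.42-fold (adjusted p = 0.0187), and 0 passed in the other comparisons.

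Ctsf, cathepsin F, had no count in any Mock-LLC Ly6Chigh library. Against a floor of 3 counts over that group, it was at least 99.0-fold higher in Mock-LLC Ly6Clow cells (951 counts over the group, adjusted p = 0.00537) and at least 35.1-fold higher in SULT2B1b-LLC Ly6Chigh cells (80 counts over the group, adjusted p = 0.0404). In the latter it was at 0.379, 4.83, 0 and 3.84 CPM, with no count in the tumour 3 library. Both bounds pool the counts of a group and cover counting error only, not the spread between libraries. Between tumour types in Ly6Chigh cells 3 of the 80 were higher and 0 lower, beside 0.891% and 0.725% of all genes tested. The 3 were Ctsf, Naaa and Tfec. Tfec, a relative of TFEB expressed in macrophages, was at 10.6, 7.29, 11.2 and 12.1 CPM in Mock-LLC and 47.3, 28.4, 32.6 and 22.7 CPM in SULT2B1b-LLC libraries, 3.16-fold higher (log2 fold change 1.66, SE 0.28, adjusted p = 0.00968). Without the SULT2B1b-LLC tumour 1 library, its highest of that group, Tfec had a log2 fold change of 1.45 (adjusted p = 0.0112), and Naaa (adjusted p = 0.00246) and Ctsf (adjusted p = 0.0309) passed as well. In Ly6Clow cells 1 of the 80 was higher and 0 were lower, beside 0.507% and 0.13% of all genes tested. The higher gene in Ly6Clow cells was Naaa, an acid amidase of fatty acid ethanolamides. Naaa was 2.07-fold higher there (adjusted p = 0.00103) and 2.11-fold higher in Ly6Chigh cells (adjusted p = 0.000899).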

How the data were processed

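Counts per gene symbol were used as the authors deposited them, 1 column per library with no normalization, which was read from whole values whose totals differ. Per the labels' protocols, 500 ng of total RNA per library went into SMART-Seq v4 libraries read as 75 nt single ends; this kit does not mark strand. The submitters' processing notes name STAR 2.5.3a, featureCounts, limma, mm10 and GRCm38; annotation and counting options: not given in the sources used here.

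In R 4.3.3, edgeR 4.0.16 was run with filterByExpr, TMM factors and a robust quasi-likelihood fit of all 15 libraries in 4 groups. Two-sided p-values were adjusted by Benjamini-Hochberg over 13800 genes, with a threshold of 0.05; every adjusted p is from this test unless another is named. The fit was tested on simulated data. SEs are the log2 fold change over the root of F, and intervals are 95% t intervals. Alternatives were median-ratio or no scaling factors (the latter chosen after the data were seen), no filter on low counts, DESeq2 1.42.0, limma-voom 3.58.1, fits of the 2 groups compared, a block and each library left out. Floors of 3 counts cover counting error only.

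Replicates differed by more than sampling noise in every pair (chi-square over its degrees of freedom, 23.8 to 95.6), and the p-values rest on the spread between these libraries, which may be partly technical. Populations with the same tumour number come from the same tumour by the labels, which is where the pairing comes from; their deviations from the group means correlated at -0.0103 to 0.0936.

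The members and lists were chosen with earlier results of these data known. Library values are given for the 3 largest changes per direction and comparison, or, where none passed, the 3 smallest unadjusted p, and further genes were chosen after their values were seen. Of the other 86 genes listed, up to 4 per direction and comparison are named. Atp6v0c and Atp6v1e1 were added after their values were seen. Exon lengths and positions are from GENCODE M21 on GRCm38, 1-based; promoters are RefSeq, GRCm38.p6.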

Additional observations from a re-analysis of the deposited data

Results flagged for a closer look

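Within groups of 4 libraries, 11 of 117 sets of CPM values held a library far from the other 3 (Dixon's criterion), and chance alone flags about 1 in 20. In the Mock-LLC tumour 1 Ly6Clow library, Ctsa was at 1176 CPM (others 1038 to 1055), Ctsh at 617 (507 to 518), Lgmn at 2295 (2006 to 2044) and Atp6ap1 at 626 CPM (555 to 561). Naglu was at 144 CPM in the Mock-LLC tumour 2 Ly6Clow library (others 124 to 127). In Mock-LLC Ly6Chigh cells, Ctsk was at 0 CPM in tumour 2 (others 3.27 to 3.80), and in tumour 4 Glb1 was at 48.1 CPM (16.4 to 21.8) and Atp6v0d2 at 2.17 CPM (others at 0). The SULT2B1b-LLC tumour 1 Ly6Chigh library, which had the fewest counts, held Man2b1 at 599.8 CPM (839 to 864) and Asah1 at 562 CPM (701 to 721). Tfeb was at 24.6 CPM in the SULT2B1b-LLC tumour 3 Ly6Chigh library (11.4 to 13.5).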

How the results depend on the processing

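Of the 39 genes, 0 of those past the threshold in a comparison changed direction under any alternative run; genes with values near 0 did, among them Lamp2, Asah1 and Atp6ap1. The count of the 39 genes past the threshold, 14 between populations in Mock-LLC tumours, was 7 with no low-count filter and 22 with limma-voom; it ran from 6 to 16 with a library left out, being 7, 6, 7 and 7 without Ly6Clow 1 to 4 and 9 without Ly6Chigh 2 or 3 of Mock-LLC, and 9, 8 and 8 without Ly6Clow 2, 3 and 4 of SULT2B1b-LLC. Between populations in SULT2B1b-LLC tumours the 5 became 2 with no filter, 8 with DESeq2, 9 with limma-voom, 2 with the 2 groups alone and 3 with the tumour as a replicate block, and ran from 1 to 7 with a library left out: 2 without Mock-LLC Ly6Clow 3, 3 without Mock-LLC Ly6Chigh 1, 2, 1 and 2 without SULT2B1b-LLC Ly6Clow 2, 3 and 4, and 3 without SULT2B1b-LLC Ly6Chigh 3. Between tumour types the 2 in Ly6Chigh cells became 0 with no filter, 7 with DESeq2, 0 with the 2 groups alone and 1 with the tumour number as a replicate block; it ran from 0 to 6, was 2 without Mock-LLC Ly6Chigh 4, and was 0 or 1 without any other library except SULT2B1b-LLC Ly6Chigh 1, which gave the 6. The 0 in Ly6Clow cells became 5 with DESeq2, 6 with limma-voom and 7 with the 2 groups alone, and was 0 to 1 with a library left out (1 without SULT2B1b-LLC Ly6Chigh 1 or 2). The interaction's 0 became 1 without Mock-LLC Ly6Chigh 4, beside 0.197% of the genes in that fit, and was 0 otherwise. The share of all genes called in either direction moved too. Between populations in Mock-LLC tumours it went from 8.41% to 1.74% with no filter and 17.6% with limma-voom. It was 7.45% with the tumour block and ran from 4.28% to 10.1% with a library left out. In SULT2B1b-LLC tumours it went from 2.64% to 0.587% with no filter and 4.72% with limma-voom. It was 6.43% with DESeq2, 1.99% with the 2 groups alone and 1.52% with the tumour block. With a library left out it ran from 0.851% to 3.05%. Between tumour types it went from 1.62% to 0.313% with no filter and 7.19% with DESeq2 in Ly6Chigh cells. There it was 0.0257% with the 2 groups alone and 0.674% with the tumour number as a block. With a library left out it ran from 0.61% to 2.51%. In Ly6Clow cells it went from 0.638% to 1.4% with DESeq2, 1.81% with limma-voom and 2.88% with the 2 groups alone. With a library left out it ran from 0.275% to 0.755%. The cause of these changes was not tested. The tumour block took the 14 to 16, adding Ctsh and Gaa, and left counts of 0 at 0; numbers shared across tumour types do not pair tumours. The shallowest library's floor of 3 counts was 1.14 CPM, which limits Ctsk and Atp6v0d2.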
